A study of Mus musculus and Mus musculus x Mus spretus with 8 samples.

Results

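Immediate early genes are genes that cells switch on soon after a stimulus, without first making new protein. The 10 genes described here, Fos, Fosb, Jun, Junb, Jund, Egr1, Ier2, Atf3, Nr4a1 and Dusp1, were taken by name from the 24060 gene symbols of the table, and all 10 were present. They were followed across 8 single cells of the mouse carotid body, the organ that senses arterial oxygen, which the labels call glomus cells. The genotype label of all 8 is wild type and the age label spans postnatal day 4 to 5; cells 1 and 3 to 8 have the strain label C57BL/6, and cell 2 has the label C57BL/6 X SPRET/EiJ. Before sequencing, the study selected the cells for Th, Uchl1 and Kcnk3. The labels name no stimulus, no animal and no time between removal of a cell and its lysis. The cells therefore form 1 group, and the values below are descriptions of these 8 cells, without p-values.

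In neurons and endocrine cells, calcium entry, cyclic AMP and growth factor signals act through kinases on factors such as CREB and SRF, which already sit at the promoters of these genes. Fos and Fosb proteins pair with Jun, Junb or Jund proteins to form the transcription factor AP-1, and Egr1 and Nr4a1 are transcription factors of other families. Dusp1 removes the phosphates that activate MAP kinases and so limits the signal. Fos and Egr1 transcripts are short-lived and are widely used as marks of recent activity in excitable cells.

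Counts per cell summed to between 3960200 and 30218206 reads, the highest in cell 2, and 4040 to 6956 genes were detected per cell. A gene was called detected at 1 RPM (read per 1000000 counted reads) or more. The selection genes Th, Uchl1 and Kcnk3 were detected in all 8 cells, at no less than 764, 331 and 199 RPM. Cell 4 stood apart from the others in genes outside this set, with 0.202 RPM of the receptor gene Olfr78 against 1203 RPM or more elsewhere and 2588 RPM of Dbh, the enzyme that makes noradrenaline, so the main values are also given without it. Of 8 immune and 8 red blood cell markers, none had a read in any cell. Of 8 endothelial markers 7 were detected in no cell; the exception, Cldn5, was detected in 6 cells. Of 8 sustentacular and glial markers 6 were detected in no cell, and of 9 fibroblast, pericyte and smooth muscle markers 5.

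The sequence before the transcription start is shown for Fos and Dusp1, which had the most closely matched levels by Pearson correlation, and for Jun, which did not follow them. Each is the 250 bases up to the start in the RefSeq annotation of GRCm38.p6, 5′ to 3′ on the gene's strand, with every match to the CREB-binding core TGACG in capitals, on either strand, and with the full site TGACGTCA in capitals where it occurs.
Fos, chr12:85473640-85473889, plus strand: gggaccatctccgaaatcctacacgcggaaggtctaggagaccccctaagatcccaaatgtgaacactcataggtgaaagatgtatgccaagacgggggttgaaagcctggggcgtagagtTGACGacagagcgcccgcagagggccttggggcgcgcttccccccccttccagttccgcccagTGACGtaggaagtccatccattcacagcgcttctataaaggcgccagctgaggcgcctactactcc
Dusp1, chr17:26508473-26508722, minus strand: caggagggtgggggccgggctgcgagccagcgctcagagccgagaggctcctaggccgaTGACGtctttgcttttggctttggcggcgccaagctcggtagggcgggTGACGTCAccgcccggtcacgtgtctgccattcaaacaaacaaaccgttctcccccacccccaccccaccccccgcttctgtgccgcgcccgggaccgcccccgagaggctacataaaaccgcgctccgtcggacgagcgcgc
Jun, chr4:95052223-95052472, minus strand: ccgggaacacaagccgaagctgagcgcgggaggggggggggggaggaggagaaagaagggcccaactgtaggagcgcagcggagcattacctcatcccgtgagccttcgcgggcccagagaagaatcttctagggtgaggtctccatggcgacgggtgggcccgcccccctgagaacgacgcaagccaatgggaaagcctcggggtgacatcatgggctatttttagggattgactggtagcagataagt

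Such windows were searched for 8 of the 10 members, all but Egr1 and Ier2. The core TGACG was present in 6 of these 8, namely Fos, Fosb, Junb, Atf3, Nr4a1 and Dusp1, and in 17.8% of 32841 promoter windows of all genes. Fos had the core beginning 129 and 66 bases before the start and the sequence TATAAA 33 bases before it. Dusp1 had it at 191, 143 and 140 bases; the matches at 143 and 140 are the overlapping strands of its full site TGACGTCA, which 1.55% of all windows hold. The windows of Jun and Jund held no match to the core, and for Jund the RefSeq start used lies upstream of the GENCODE gene. Only exact matches were counted. The Jun window holds tgacatca, which differs from the full site TGACGTCA at 1 base and was therefore not marked. A link between the core and the levels of these genes was not tested. The CArG box, the sequence that SRF binds, was in none of the 8 windows and in 1.47% of all, and the AP-1 sequences TGACTCA and TGAGTCA were in none of the 8 and in 4.46% of all. The windows reach only 250 bases before the start. Sites farther upstream, and any sites of Egr1 and Ier2, were not searched, so these genes may hold such sequences elsewhere.

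Most of the early genes were present in most cells, at levels that differed widely between cells. Other genes differed by nearly as much. The median standard deviation (SD) over cells of log2(RPM + 1) was 3.31 for the 8 members detected in at least 4 cells. It was 2.98 for all 5936 genes that met this rule. Of the 10 genes, 6 were detected in at least 6 of the 8 cells (Fos, Jun, Junb, Jund, Egr1 and Dusp1), a rule that 14.2% of all 24060 genes met. Jund and Dusp1 were detected in all 8 cells, as were 4.88% of all genes. At 10 RPM the count over at least 6 cells was also 6, and with 1 cell left out it was 5 or 6. Each of the 10 genes was detected in at least 1 cell, against 44.8% of all genes, and 9 of them reached 100 RPM in at least 1 cell, against 28.8% of all genes.

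**Figure D1:**
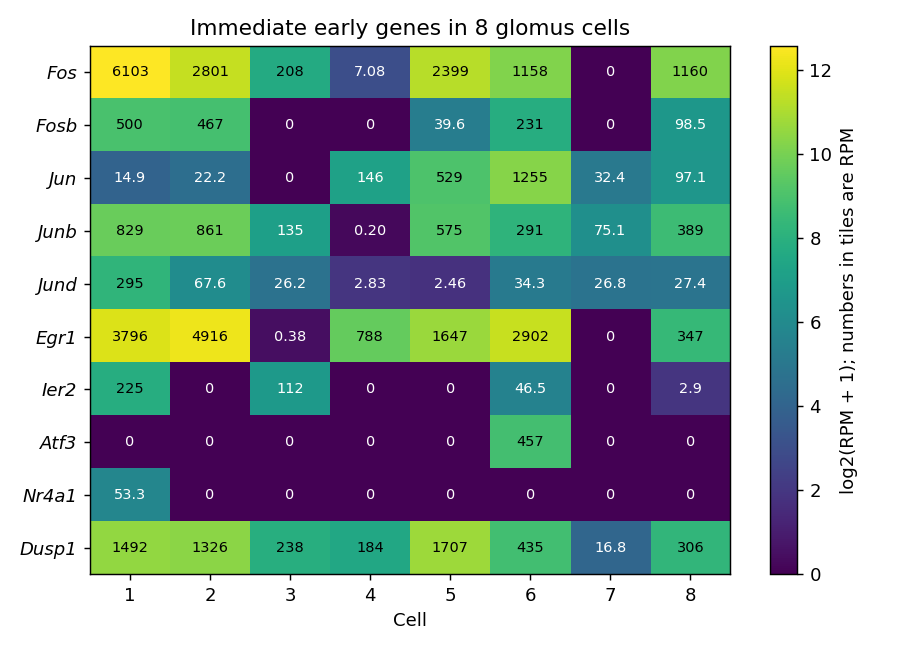
Level of each immediate early gene (rows) in each of the 8 cells (columns). Colour gives log2(RPM + 1), and the number in a tile is the RPM value. Cells 1, 2, 5 and 6 are bright for Fos, Junb, Egr1 and Dusp1, whereas cell 7 has 0 reads of Fos and Egr1, and Jun is highest in cell 6.

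Fos, the founding member of the AP-1 family (chromosome 12, 85473890 to 85477273 of mm10, 4 exons), stood at 6103, 2801, 208, 7.08, 2399, 1158, 0 and 1160 RPM in cells 1 to 8. It was thus at 1158 RPM or more in 5 cells, low in cells 3 and 4, and without a read in cell 7, where 3 reads, the limit that a count of 0 allows, would be 0.462 RPM. Its median was 1159 RPM, and in cell 1 it was the 5th highest gene of the cell, with 0.610% of the reads.

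Fosb, the close relative that forms the same kind of dimer (chromosome 7, 19302696 to 19310051), stood at 500.5, 467, 0, 0, 39.6, 231, 0 and 98.5 RPM in cells 1 to 8. It was detected in 5 cells, which were the 5 cells with the most Fos, and had 0 reads in the other 3. Its median was 69.0 RPM.

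Junb, a Jun protein that pairs with Fos (gene at chromosome 8, 84974484 to 84978718), stood at 829, 861, 135, 0.202, 575, 291, 75.1 and 389 RPM in cells 1 to 8. Its longest coding transcript has 1 exon of 1809 bases and covers only part of that span. The value in cell 4 is a single read, and the other 7 cells lay between 75.1 and 861 RPM. Junb overlaps Prdx2 on the other strand by 351 bases, and the strand setting of the counting is not given in the sources used here. Prdx2 stood at 94.9, 116, 223, 220.1, 269, 10.6, 280 and 96.1 RPM in cells 1 to 8. Its part in the counts of Junb was not tested.

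Jun, the main partner of Fos in AP-1 (chromosome 4, 95049034 to 95052222, 1 exon), stood at 14.9, 22.2, 0, 146, 529, 1255, 32.4 and 97.1 RPM in cells 1 to 8. Its highest values were in cells 6 and 5, and it was low in cells 1 and 2, the pair of cells with the most Fos. In cell 4, where Fos stood at 7.08 RPM and Junb at a single read, Jun was higher than in any cell but 5 and 6. The gene Junos overlaps Jun on the other strand by 689 bases and has no entry in the table, so the level of Jun is uncertain. The part of Junos in the counts of Jun was not tested.

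Jund, the Jun family member usually expressed without a stimulus (chromosome 8, 70698949 to 70700616, 1 exon), stood at 295, 67.6, 26.2, 2.83, 2.46, 34.3, 26.8 and 27.4 RPM in cells 1 to 8. Cells 3, 6, 7 and 8 lay within 26.2 to 34.3 RPM, cell 1 lay above all others and cells 4 and 5 below. The antisense gene Gm11175 covers 52.8% of the Jund transcript and has no entry of its own in the table, so the level of Jund is uncertain.

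Egr1, a zinc finger transcription factor of neurons and many other cells, stood at 3796, 4916, 0.377, 788, 1647, 2902, 0 and 347 RPM in cells 1 to 8. It was either at 347 RPM or more, in 6 cells, or near 0, in cells 3 and 7, with 2 reads in cell 3 and none in cell 7. Its median was 1218 RPM, and in cell 2 it was the 4th highest gene of the cell.

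Dusp1, the phosphatase that turns MAP kinases off (chromosome 17, 26505590 to 26562128), stood at 1492, 1326, 238, 184, 1707, 435, 16.8 and 306 RPM in cells 1 to 8. Every cell had reads, with the lowest level in cell 7 and the highest in cells 5, 1 and 2. Dusp1 overlaps Ergic1 on the other strand by 640 bases, a gene with 0 reads in cells 4 to 7. It also overlaps Gm8225 on the other strand by 956 bases and AC122252.1 and AC122252.4 on its own strand by 1853 and 227 bases, none of them in the table, so its level is uncertain too.

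Ier2, a nuclear early response protein (chromosome 8, 84661331 to 84662852, 1 exon), stood at 225, 0, 112, 0, 0, 46.5, 0 and 2.90 RPM in cells 1 to 8. It was absent from the reads of cells 2 and 5, which were rich in Fos, and present in cell 3, which was poor in Fos. Atf3, a stress-responsive factor of the ATF family (chromosome 1, 191170296 to 191218039), was at 457 RPM in cell 6 and had 0 reads in the other 7 cells. Nr4a1, an orphan nuclear receptor (chromosome 15, 101254269 to 101274795), was at 53.3 RPM in cell 1 and had 0 reads in the other 7 cells. The limit allowed by 0 reads was between 0.0993 and 0.758 RPM per cell and takes in counting error alone, because reads copied by PCR from 1 molecule are counted separately.

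Per length, with the longest coding transcript of each gene, the median level fell in the order Fos (550 RPM per kb), Egr1 (272), Junb (188), Dusp1 (186), Jun (20.3), Fosb (18.3), Jund (16.3) and Ier2 (0.953), followed by Atf3 and Nr4a1 at 0. The ranges over the 8 cells of every pair of neighbours in this order overlapped, so no neighbours in it were separated beyond their spread. Whether reads cover transcripts evenly is not given in the sources used here, and the order depends on it.

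The summed level of the 10 genes per cell was 13307, 10460, 721, 1129, 6899, 6810, 151 and 2428 RPM in cells 1 to 8. Cell 1 thus gave 1.33% of its reads to these genes and cell 7 gave 0.0151%. The mean log2(RPM + 1) over the 10 genes ran from 2.03 in cell 7 to 7.95 in cell 1, a span of 5.92 log2 units, or 7.59 with a pseudocount of 0.1 and 4.99 without cell 7. Cells 1 and 6 detected 9 of the 10 genes, cell 8 detected 8, cells 2 and 5 detected 7, cells 3 and 4 detected 5 and cell 7 detected 4.

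**Figure D2:**
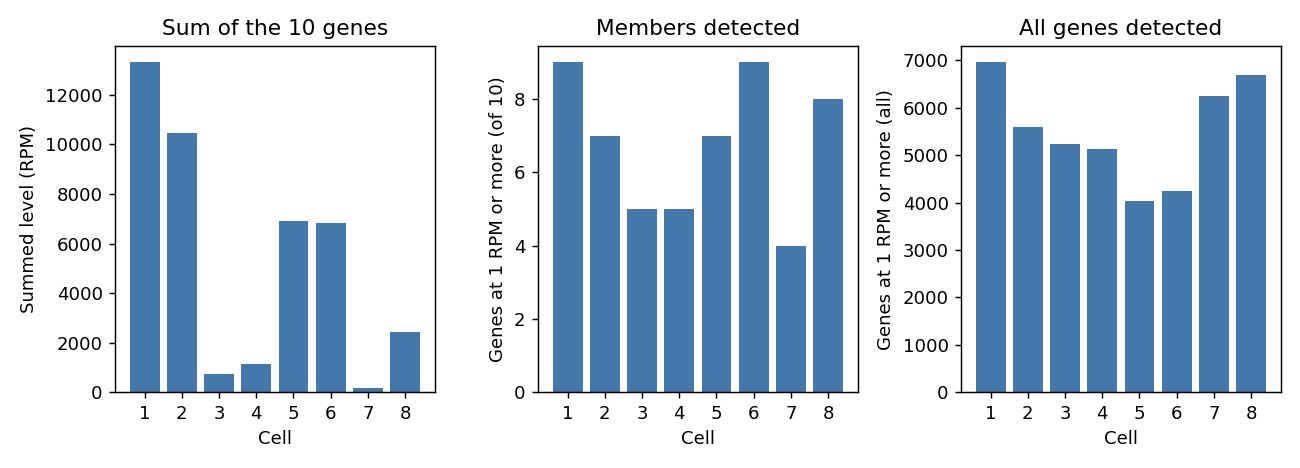
Bars give, for each of the 8 cells, the summed level of the 10 genes in RPM (left), the number of the 10 detected at 1 RPM or more (middle) and the number of all genes detected (right). Cells 3, 4 and 7 have the lowest sums, 721, 1129 and 151 RPM, whereas cell 7 detects 6257 genes, more than cells 2 to 6.

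The order of the cells by early gene level was not their order by genes detected or by depth. The Spearman correlation over the 8 cells of the mean early gene level with the number of genes detected was 0.071, and that with the read total was 0.00. Cell 7, the lowest, detected 6257 genes, and cells 5 and 6, with sums of 6899 and 6810 RPM, detected the fewest, 4040 and 4242. These are descriptions over 8 cells that share their libraries with the values compared.

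Several of the early genes were high in the same cells, but not all of them. Among the 8 genes detected in at least 4 cells, the 28 pairs had a median Spearman correlation over cells of 0.51, with 23 pairs above 0 and 5 below. Over all pairs of the 5936 genes that passed the same filter the median was 0.03. A correlation of 0.5 or more was reached by 14 of the 28 pairs and by 12.4% of all gene pairs. Without cell 4 the count was again 14 and the median 0.45, against a median of 0.04 over all pairs, of which 15.0% reached 0.5. Leaving out any other cell gave counts from 11 to 16 and medians from 0.36 (without cell 1) to 0.71 (without cell 5). The pairs share genes and all share the same 8 cells, so they are not independent of each other.

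Fos, Fosb, Junb, Egr1 and Dusp1, grouped here after their values were seen, accounted for 10 of the 14 pairs. Their pairwise correlations ran from 0.73 for Fosb and Dusp1 to 0.95 for Fos and Junb, and without cell 4 from 0.63 to 0.96. On the log2 scale Junb and Egr1 were less alike, with a Pearson correlation of 0.25 over all 8 cells, since cell 4 held 788 RPM of Egr1 and a single read of Junb. By rank Jund was above 0.5 with Fos, Fosb, Junb and Egr1, and at 0.26 with Dusp1. On the log2 scale its Pearson correlations were 0.39 with Fos, 0.55 with Fosb, 0.57 with Junb, 0.10 with Egr1 and 0.18 with Dusp1.

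Jun, whose level is uncertain because of the overlap with Junos, did not follow the others by rank. Its Spearman correlations with the 7 other genes ran from -0.41 with Ier2 to 0.12 with Dusp1, and with Fos, its main partner in AP-1, it stood at -0.17, or -0.11 without cell 4. Cells 1 and 2 had 6103 and 2801 RPM of Fos with 14.9 and 22.2 RPM of Jun, whereas cell 6 had 1158 RPM of Fos with 1255 RPM of Jun. On the log2 scale the Pearson correlations of Jun reached 0.57, with Egr1, and fell as low as -0.42, with Jund. Ier2 had Spearman correlations between -0.41 and 0.48 and Pearson correlations between -0.37 and 0.62, the highest with Jund. Transcripts of both a Fos and a Jun family gene were detected in 7 cells; the exception, cell 7, had Jun, Junb and Jund and no read of Fos or Fosb.

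**Figure D3:**
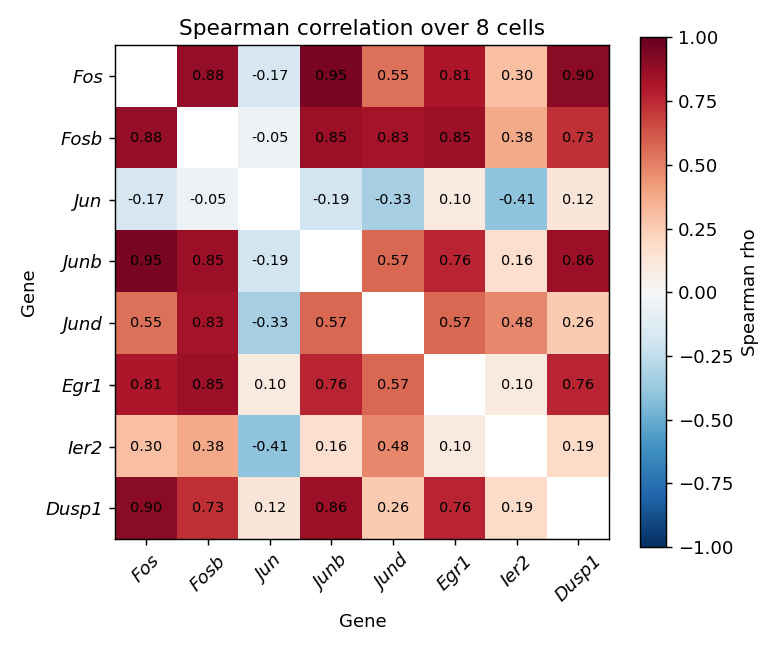
Spearman correlation over the 8 cells for each pair of the 8 early genes detected in at least 4 cells; red is positive and blue negative. Fos, Fosb, Junb, Egr1 and Dusp1 form a red set with values from 0.73 to 0.95, and the row of Jun lies between -0.41 and 0.12.

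**Figure D4:**
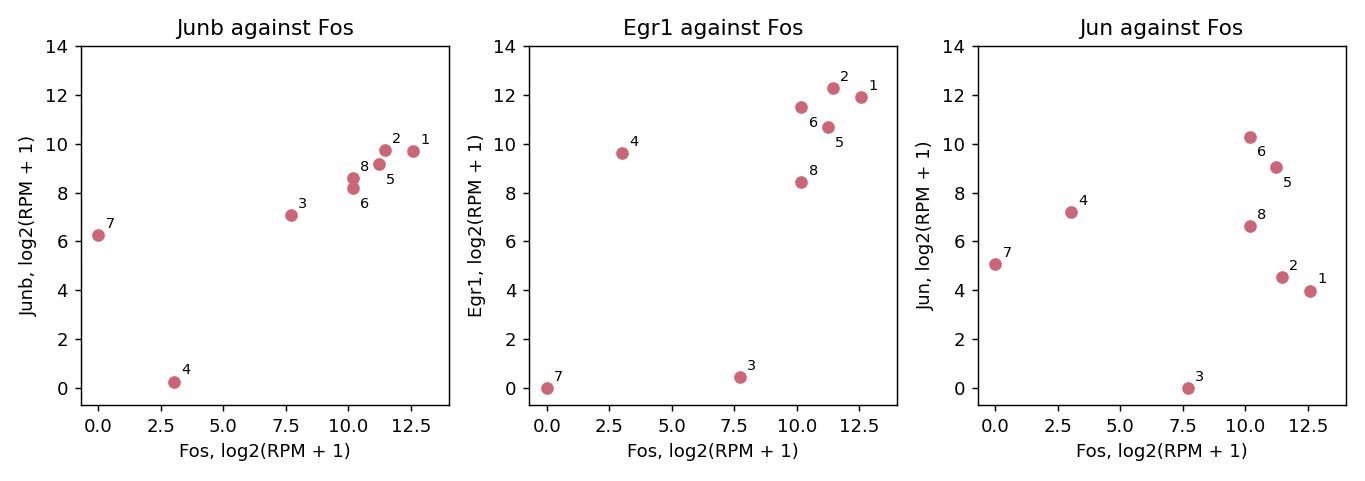
Level of Junb, Egr1 and Jun (vertical axes) against Fos (horizontal axis), all as log2(RPM + 1), with 1 numbered point per cell. Junb and Fos are both high in cells 1, 2, 5, 6 and 8, Egr1 is near 0 in cells 3 and 7, and Jun is highest in cells 5 and 6 and low in cells 1 and 2.

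The 8 genes were also ranked over the cells at once with Kendall's W, which is 1 when every gene ranks the cells alike and on average 0.125 when 8 genes rank them without relation. W was 0.497, or 0.492 without cell 4 and 0.545 without cell 2, the only cell with a SPRET/EiJ parent in its label. By mean rank cell 1 was highest (6.88), followed by cell 2 (6.06), cell 6 (5.62) and cell 5 (4.94), and cell 7 was lowest (2.19). Cell 7 lay above a gene's own median for 0 of the 8 genes and cells 3 and 4 for 1 gene each.

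Of 40 other immediate early genes 25 were detected in at least 1 cell, against 44.8% of all genes, and 2 in at least 6 cells, against 14.2%. The 2 were the growth inhibitor gene Btg1 (median 46.0 RPM) and the small GTPase gene Rhob (167 RPM). Btg1 was highest in cell 5, at 1019 RPM, and Rhob in cell 6, at 739 RPM, and their Pearson correlations with the mean log2 level of the 10 members were -0.49 and 0.36. The cells detected 17, 9, 7, 7, 5, 12, 6 and 12 of the 40 in cells 1 to 8. Among the 40 there were 9 detected in a single cell, against 8.33% of all genes in the table, and 5 of these 9 were in cell 1. The 5, named after their values were seen, were Npas4, a calcium-dependent factor of active neurons, at 306 RPM, Myc at 104 RPM, Nr4a2 at 16.9 RPM, Egr3 at 15.7 RPM and Ier5l at 14.6 RPM. Cell 1 also held 389 of the 2005 genes of the whole table detected in a single cell, or 19.4%, the highest number of the 8 cells. Of the 9 other early genes detected in at least 4 cells, 3 correlated with the mean level of the 10 members at 0.5 or more by Pearson's r, as did 9.63% of 5928 genes outside the members.

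Of 40 factors and kinases that switch early genes on, 15 passed the detection rule in at least 6 cells, against 14.2% of all genes. Among the highest by mean log2 level were the protein kinase A subunit genes Prkacb (median 585 RPM) and Prkaca (383 RPM) and the MAP kinase pathway gene Braf (596 RPM). Their Pearson correlations with the mean early gene level were 0.59 for Prkacb, 0.16 for Prkaca and -0.31 for Braf, and the median over the 26 genes of this list detected in at least 4 cells was -0.10. Of 15 further AP-1 and ATF family genes 3 passed in at least 6 cells, against the same 14.2% of all genes. These were Atf2 (median 227 RPM), Atf4, a factor of the stress response (101 RPM), and Mafg (26.0 RPM), with correlations of 0.23, 0.74 and -0.17. Atf4 stood at 759 and 722 RPM in cells 1 and 2 and at 0.154 RPM in cell 7.

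A list of 18 genes was named for brakes on early gene signals, though not every gene in it acts as a brake. Of the 18, 6 were detected in at least 6 cells, against 14.2% of all genes. The highest by mean log2 level were Hnrnpd (median 292 RPM), Dusp3, a phosphatase (78.7 RPM), Elavl1 (45.4 RPM) and Nab1, a corepressor of Egr proteins (36.0 RPM). Hnrnpd and Elavl1 both bind AU-rich messenger RNAs, but Elavl1 mostly stabilizes them and so is no brake. Hnrnpd had a Pearson correlation of -0.70 with the mean early gene level. It was lowest in cell 1, at 90.4 RPM, but highest in cell 5, at 781 RPM, where the early genes summed to 6899 RPM. The correlations of the others were 0.29 for Dusp3, -0.11 for Elavl1 and 0.59 for Nab1, and the median over the 9 genes detected in at least 4 cells was -0.16. A list of 16 genes that respond later to activity had 5 members detected in at least 6 cells, against 14.2% of all genes. The highest by mean log2 level were the granule protein gene Scg2 (median 369.9 RPM, correlation 0.53), the pentraxin gene Nptx1 (529 RPM, 0.51), Npy (167 RPM, -0.06) and Th (2078 RPM, 0.71). The median over its 7 genes detected in at least 4 cells was 0.51. The peptide gene Gal, named after its values were seen, had a median of 182 RPM and a correlation of 0.53. Th is also a selection gene, and of the other selection genes Kcnk3 stood at 0.75 and Uchl1 at -0.20.

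Heat shock genes, most of which encode chaperones, were mostly not arranged over the cells like the early genes, as far as they were detected. Hspa1a, Hspa1b and Hspb1, named after their values were seen, gave little to compare. Hspa1a was detected in cell 5 alone, at 31.7 RPM, Hspa1b had 0 reads, and Hspb1 reached 0.290 RPM at most. Whether the cells were under stress was not tested. Of 14 genes 9 passed in at least 6 cells, against 14.2% of all genes. The highest by mean log2 level were Hsp90ab1 (median 1102 RPM), Hspa5 (655 RPM), Hspa8 (74.3 RPM) and Dnaja1 (52.1 RPM). Their correlations with the mean early gene level were 0.45, -0.61, -0.48 and -0.53, and the median over the 10 genes detected in at least 4 cells was -0.24. Of these 10, 2 reached 0.5 or more, as did 9.63% of 5928 genes outside the members. They were Hspb8 at 0.92 and Hsp90aa1 at 0.74. Hsp90aa1, named after its values were seen, had a median of 2.61 RPM. The summed heat shock level ran from 1642 to 3456 RPM over the cells, whereas the summed early gene level ran from 151 to 13307 RPM. Among 12 reference genes Ywhaz, Tubb5 and Actb had correlations of -0.43, -0.07 and -0.26, and the median over the 10 detected in at least 4 cells was -0.15. Of these 10, 2 reached 0.5 or more, against the same 9.63% of genes outside the members. They were Eef2, a translation elongation factor, at 0.89 and Sdha at 0.54, both named after their values were seen.

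The endothelial marker Cldn5, a tight junction protein, varied over cells partly along with the early genes, at 720 RPM in cell 1, 2730 in cell 2, 851 in cell 3, 415 in cell 5, 539 in cell 6, 55.3 in cell 8 and 0 in cells 4 and 7. Cell 3, second highest for Cldn5, was among the lowest cells for the early genes. Its correlation with the mean early gene level was 0.74. The endothelial list summed to between 0 and 2730 RPM per cell, nearly all of it Cldn5, and the other 7 of the 8 markers, with the defining genes Pecam1 and Cdh5 among them, were detected in no cell. The sustentacular and glial list summed to between 0 and 154 RPM, and the fibroblast, pericyte and smooth muscle list to between 0 and 355 RPM, with its highest value in cell 3 from Pdgfrb. The part of these transcripts in the early gene levels was not tested.

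The genes most like the early genes were sought over the whole table by Pearson correlation. The log2(RPM + 1) of each gene was set against the mean level of the 10 members over the 8 cells. That mean takes in Atf3 and Nr4a1, each detected in 1 cell only. It stood at 7.63 in cell 6 and 6.33 in cell 2, whereas the summed level was 6810 RPM in cell 6 and 10460 RPM in cell 2. Among 5928 genes detected in at least 4 cells the median correlation was -0.01, and 6 genes exceeded 0.9. The highest 8 were Ftl1 (0.95), which encodes the ferritin light chain, Ctdsp2 (0.94), a phosphatase of RNA polymerase II, Pias1 (0.94), a SUMO ligase, Hspb8 (0.92), a small heat shock protein, Fam204a (0.91), Psmb1 (0.90), a proteasome subunit, Ube2g2 (0.90), a ubiquitin-conjugating enzyme, and Ccnd2 (0.89), cyclin D2. Ftl1 is uncertain, since 100% of its transcript has near-identical copies. Copies cover 20.8% of Ctdsp2, 17.9% of Fam204a, 8.17% of Ube2g2 and 5.91% of Ccnd2, and none of Pias1, Hspb8 and Psmb1. Hspb8 stood at 426, 131, 6.03, 0, 327, 158, 0.308 and 180.1 RPM in cells 1 to 8, so that cells 3, 4 and 7 were low for it as for the early genes. Ccnd2 stood at 2166, 3614, 0, 0.202, 226, 333, 0 and 1072 RPM, again with cells 3, 4 and 7 at or near 0. Without cell 4 the 8 correlations were 0.87 to 0.94. A ranking over this many genes and only 8 cells picks high values from many, so these genes are a description of the cells.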

How the data were processed

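RNA of 8 single cells was reverse transcribed, amplified by PCR and made into transposase libraries, per the labels' protocols. Reads were aligned with Bowtie to mm10, per the submitters' processing notes; the sources used here give no version, counter, annotation or strand setting. The deposited counts are raw reads per gene symbol, per the file headers. The deposited RPM values, per the file headers, equal the count divided by the cell's total, and correct for depth only.

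Levels are the deposited RPM, log2 levels are log2(RPM + 1), and a gene was detected at 1 RPM or more, which is at least 3.96 reads in every cell. Spearman and Pearson correlations and Kendall's W (corrected for ties) were computed with numpy 2.4.6 and scipy 1.17.1 and tested on simulated data. Alternatives were other detection limits and pseudocounts, TMM scaling (edgeR 4.0.16), median-of-ratios scaling, other filters and leaving out each cell. Cells of unnamed animals are no replicates of a condition, so no p-value was computed.

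Positions and transcripts came from GENCODE M21 on mm10. Near-identical copies were stretches of at least 50 bases at 95% identity or more (BLAST 2.17.0). Of the 10 members 8 had their RefSeq GRCm38.p6 promoters searched. The members and gene lists were chosen with earlier results of these data known. Named were all members, the 4 highest genes of each list detected in at least 6 cells (the highest if none was), and the 8 genes most like the members; some genes the rule takes are not reported here, and others are said to be named after their values were seen. The highest immune and red blood cell genes by this rule, Ptprc and Hba-a1, had 0 reads.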

Additional observations from a re-analysis of the deposited data

Results flagged for a closer look

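A cell was set apart in a value where it passed the 95% limit of Dixon's test for 8 values, which sets the distance from an extreme value to its neighbour against the whole range. Among 48 values checked, 14 did so, all on the high side; chance sets apart about 1 in 20 groups of normally spread values, and RPM values of single cells are skewed, which was not corrected for.

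Of the early genes, 5 were set apart in 1 cell. The share of all genes that pass the same limit was not computed, so this count has no background to be set against. Fos reached 6103 RPM in cell 1 with 2801 RPM as the next value. Jund reached 295 RPM in cell 1 with 67.6 RPM next, and Nr4a1 53.3 RPM in cell 1 with 0 in all others. Jun reached 1255 RPM in cell 6 with 529 RPM next, and Atf3 457 RPM in cell 6 with 0 in all others. The values thus lay in 2 cells, 1 and 6, which were also the pair that detected 9 of the 10 early genes. The 2 descriptions are not separate, since the sole detections of Nr4a1 in cell 1 and of Atf3 in cell 6 enter both. A gene with reads in 1 cell only passes the limit whatever its level, so for Nr4a1 and Atf3 the outcome was fixed in advance. Of all genes in the table, 8.33% were detected in 1 cell only.

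Among the other genes named, cell 5 was set apart in Btg1 (1019 RPM), Braf (2178 RPM) and Hsp90ab1 (2006 RPM). Cell 6 was set apart in Rhob (739 RPM) and Ctdsp2 (1220 RPM). Mafg was at 242 RPM in cell 7, Tubb5 at 9429 RPM in cell 4, Cldn5 at 2730 RPM in cell 2 and Pdgfrb at 350.2 RPM in cell 3.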

How the results depend on the processing

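The number of early genes detected in at least 6 cells was 6 at 1 RPM, at 10 RPM and with any read, and 5 to 6 with 1 cell left out. The median pairwise correlation of 0.51 was 0.40 with Pearson's r, 0.41 over all 10 genes, 0.57 over the 6 most widely detected, 0.53 with TMM and 0.46 with median-of-ratios scaling, and 0.36 to 0.71 with 1 cell left out. Pairs at 0.5 or more, a count whose repeats were chosen after seeing the data, numbered 11 to 16 with 1 cell left out. Kendall's W was 0.436 to 0.529 under other filters and scalings and 0.459 to 0.556 with 1 cell left out. The span of mean log2 levels was 5.92, 5.73 under both scalings, 7.59 with a pseudocount of 0.1 and 4.99 to 5.92 with 1 cell left out, the lowest without cell 7. Medians of single genes moved by less than their SD over cells in all alternatives run, but with 1 cell left out those of Fosb ran from 39.6 to 98.5 RPM, of Jun from 32.4 to 97.1 RPM, of Egr1 from 788 to 1647 RPM and of Ier2 from 0 to 2.90 RPM. No paired analysis was possible because the labels give 1 group of cells.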
